A study of Mus musculus with 8 samples.

Results

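Protamines, transition proteins, the spermatid linker histones and their chromatin partners were examined on bead arrays of mouse round spermatids, germ cells that have completed meiosis and not yet elongated. The list held 9 genes: Prm1, Prm2, Prm3, Tnp1, Tnp2, H1fnt, Hils1, Brdt and Chd5. All probes whose platform symbol, or its current synonym, named a listed gene were taken. This gave 15 of the 45281 probes, for 8 of the 9 genes, among 19057 genes named on the array. H1fnt was found under its current symbol H1f7, and Prm2 had no probe by the annotation used. There were 2 probes for Prm1, 3 for Brdt, 5 for Chd5 and 1 for each of the others.

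The 8 arrays fell into 3 groups: 2 arrays with a transgenic short hairpin construct against the X-linked Slx genes (shSLX), 2 with one against the Y-linked Sly genes (shSLY, titled sh367), and 4 wildtype arrays without a transgene. All mice were 8 weeks old, and the spermatids were purified by centrifugal elutriation. The controls were described as matched for age and strain. The strain, the promoter of the transgenes, and whether arrays came from separate animals are not given in the sources used here, so p-values measure the spread between these arrays, which may be technical. The array labels put wildtype 2 alone on slide 1, wildtype 1 with both shSLY arrays on slide 2, and wildtype 3 and 4 with both shSLX arrays on slide 3.

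In spermatids, nuclear histones are replaced first by transition proteins and then by protamines, small arginine-rich proteins that pack sperm DNA. The mRNAs for these proteins are transcribed in round spermatids, stored, and translated later in elongating cells. CREM, an activator that binds cAMP response elements, drives many of these genes.

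Prm1, Prm2, Prm3 and Tnp2 are consecutive genes on chromosome 16 in the GRCm38.p6 gene order, in the order Tnp2, Prm3, Prm2, Prm1, whereas Tnp1 lies on chromosome 1. The 120 bases before the annotated start of 4 of them are shown. The results below turn on Prm3 and Tnp2, which had the clearest separation of arrays, and Prm1 and Tnp1 share their family names. The sequences are from RefSeq, GRCm38.p6, on the minus strand at chr16:10796824-10796943 for Prm1, chr16:10790915-10791034 for Prm3, chr16:10788656-10788775 for Tnp2 and chr1:73015900-73016019 for Tnp1. Capitals mark matches to TGANNTCA, a loose form of the cAMP response element TGACGTCA, and to TATA.
Prm1: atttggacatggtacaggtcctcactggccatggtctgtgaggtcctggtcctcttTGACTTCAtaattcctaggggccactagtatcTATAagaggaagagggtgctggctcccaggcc
Prm3: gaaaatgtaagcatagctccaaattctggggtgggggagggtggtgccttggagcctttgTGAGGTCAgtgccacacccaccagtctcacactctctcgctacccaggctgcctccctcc
Tnp2: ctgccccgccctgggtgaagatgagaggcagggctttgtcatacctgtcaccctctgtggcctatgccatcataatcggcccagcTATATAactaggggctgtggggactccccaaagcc
Tnp1: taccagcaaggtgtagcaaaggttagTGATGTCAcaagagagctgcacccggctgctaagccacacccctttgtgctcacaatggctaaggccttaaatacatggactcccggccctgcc

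Within 250 bases before the start, TGANNTCA was present in Prm1 (TGACTTCA, first base at position -64), Prm3 (TGAGGTCA at -60) and Tnp1 (TGATGTCA at -94), and TATA in Prm1 (-32) and Tnp2 (-35 and -33, overlapping). Both motifs read the same on either strand. Of 32851 promoters of that length, 11.9% held TGANNTCA, 34.0% held TATA and 1.55% held the full TGACGTCA, which none of the 4 held. The loose motif was chosen with these sequences in view. A match describes the letters only.

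Of the 15 probes, 13 were detected in all 8 columns of the deposited detection p-values and were tested. The other two, Brdt ILMN_2515856 and Chd5 ILMN_2644528, were detected in 0 columns, with detection p between 0.130 and 0.871, and were not tested. Values below are log2 signals from the authors' normalized table, background-corrected and quantile-normalized. Fold changes are limma fits with slide as a term, adjusted by Benjamini-Hochberg over 16572 tested probes, with a threshold of 0.05. With that term, shSLX was in effect set against wildtype 3 and 4, and shSLY against wildtype 1. The spread was estimated from the shSLX pair, the shSLY pair and wildtype 3 and 4. Wildtype 1 and 2 added nothing to it, because with the slide term each was fitted exactly.

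The deposited tables disagree over array identity, and this touches every direction below. By rank correlation over all probes, 2 of 8 non-normalized columns matched the normalized column of the same sample (wildtype 1 and 2). Another 4 matched a different sample: columns headed shSLY 1 and 2 held the ranks of shSLX 1 and 2, and the ranks of shSLY 1 and 2 stood under the headers wildtype 3 and 4. No column matched the normalized wildtype 3 or 4, the arrays that shSLX was in effect set against. No detection p-value is therefore known to belong to these 2 arrays. The columns headed shSLX 1 and 2 matched none, with a best Spearman correlation of 0.893 and 0.916. Values given below by that table's own headers therefore set unmatched columns, as shSLX, against columns with shSLY ranks, as wildtype 3 and 4. In neqc-normalized log2 values, both columns headed shSLX lay above all 4 headed wildtype for 3 of 13 probes of the list, where 22.9% of all tested probes did, and below for 4, where 24.3% did. Group names and slides here follow the sample records. Slides were read from the array labels, which also head the non-normalized columns. By those headers the ranks of shSLX 1 and 2 stood on slide 2 and those of shSLY 1 and 2 on slide 3. The slide term thus shares the doubt over identity. All 8 round spermatid marker genes chosen for the cell type check, from the acrosome gene Acrv1 to Catsper3, were detected. Of 5 Leydig markers, all with a probe, 4 did not pass detection, among them Cyp17a1 and Star. Of 8 Sertoli markers, 6 had a probe and 3 passed detection, and Amh and Wt1 were among those not measured.

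No probe of the listed genes passed the threshold in any comparison. In limma's test of shSLX against wildtype, 0 of 13 probes passed, where 2.41% of all tested probes did (2.19% higher, 0.223% lower), and 6 had an unadjusted p under 0.05 (17.2% of all). For shSLY against wildtype the count was 0 of 13, where 0.712% of all tested probes passed (0.579% higher, 0.133% lower), and 2 had an unadjusted p under 0.05 (8.91% of all). In the difference between both effects it was 0 of 13, where 1.80% of all passed (1.17% higher, 0.628% lower), with 1 probe under 0.05 unadjusted (13.7% of all). The 6 included 2 probes of Chd5, so probes are not separate genes. The lowest adjusted p was 0.111 for shSLX, 0.252 for shSLY and 0.313 for the difference. Fitted log2 fold changes lay between -0.36 and 0.44 for shSLX and between -0.38 and 0.44 for shSLY, with medians of 0.031 and 0.019 against -0.018 and -0.013 over all tested probes.

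Set against all 4 wildtype arrays, both shSLX arrays lay above for 3 of 13 probes (Prm3, Tnp2 and Hils1), where 11.7% of all tested probes did, and below for 3 Chd5 probes, where 13.4% did. Both shSLY arrays lay above for 4 of 13 (Prm3, Tnp2, Brdt ILMN_2705747 and Chd5 ILMN_2491243), where 16.6% of all did, and below for 2 (Hils1 and Brdt ILMN_3127006), where 19.0% did. Within a slide, shSLX lay above wildtype 3 and 4 for 5 probes and below for 5, where 21.6% and 24.9% of all did. Against wildtype 1, shSLY lay above for 5 and below for 5, where 35.1% and 40.8% of all did.

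**Figure D1:**
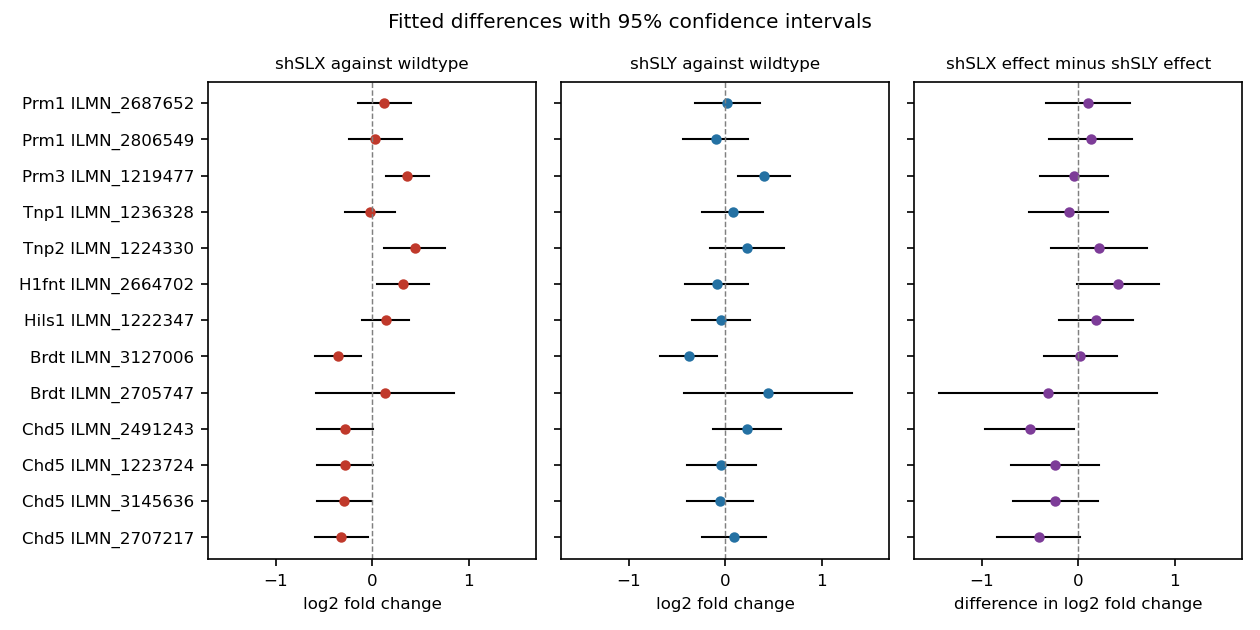
Fitted log2 fold changes (points) with 95% confidence intervals (lines) for the 13 tested probes, in shSLX against wildtype, shSLY against wildtype, and the difference between both effects. Prm3 and 1 Brdt probe lie on the same side of 0 in the first and second panels, with intervals that leave out 0, and no probe had an adjusted p under 0.05.

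The clearest separation was at Prm3, which despite its name encodes an acidic protein of the spermatid cytoplasm and not a DNA-packing protamine. Its log2 signals were 11.86 and 11.91 in shSLX 1 and 2 and 11.97 and 12.06 in shSLY 1 and 2, against 11.61, 11.27, 11.52 and 11.52 in wildtype 1 to 4. All 4 knockdown arrays lay above all 4 wildtype arrays. Such a separation was seen for 2 of 13 probes of the list, Prm3 and Tnp2, where 2.32% of all tested probes had it. In the other direction it was seen for 0 of 13, where 2.08% of all had it. The fitted log2 fold change was 0.36 ± 0.098 (SE) in shSLX, 1.29-fold with a 95% interval of 1.10 to 1.50, and did not pass (limma adjusted p = 0.111). For shSLY it was 0.40 ± 0.12, 1.32-fold with an interval of 1.10 to 1.60, and did not pass either (limma adjusted p = 0.252). Both fits share 1 estimate of the spread. The shSLY value passed with no slide term (0.54, limma adjusted p = 0.0250) and with slide fitted as a random block (0.50, 0.0409). By the non-normalized table's own headers the shSLX value turned to -0.62 (limma adjusted p = 0.0572). The difference between both effects on Prm3 was -0.040, with an interval of -0.39 to 0.31.

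Tnp2, a transition protein gene whose product binds zinc and condenses spermatid DNA, gave 10.85 and 11.14 in shSLX and 11.01 and 11.02 in shSLY, against 10.79, 10.65, 10.71 and 10.40 in wildtype 1 to 4. The knockdown and wildtype arrays again did not overlap, with shSLX 1 and wildtype 1 the closest pair. The fitted value was 0.44 ± 0.14 in shSLX, 1.36-fold with an interval of 1.09 to 1.69 (limma adjusted p = 0.166). In shSLY it was 0.22 ± 0.17, with a fold interval of 0.893 to 1.53 that includes 1 (limma adjusted p = 0.830). Without wildtype 3 the shSLX value was 0.60, and without wildtype 4, the lowest array, it was 0.28. By the non-normalized table's own headers it turned to -0.59 and passed as lower (limma adjusted p = 0.0475).

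**Figure D2:**
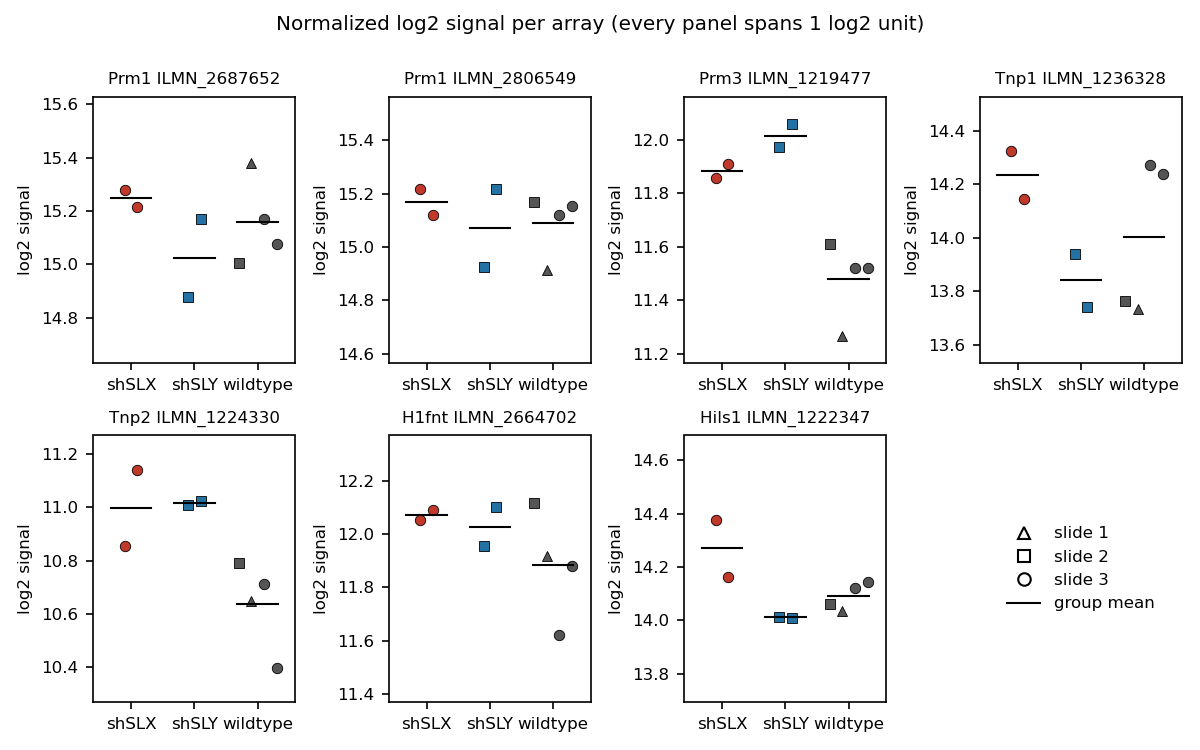
Normalized log2 signal of Prm1, Prm3, Tnp1, Tnp2, H1fnt and Hils1 probes on each array, in shSLX, shSLY and wildtype (symbols give the slide, bars the group means). All 4 knockdown arrays lie above the wildtype arrays for Prm3 and Tnp2. Tnp1 follows the slides as labelled, with values from 14.14 to 14.32 on slide 3 and from 13.73 to 13.94 on the others.

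Prm1, the protamine found in sperm of all mammals, was measured at the top of the range. Its probes ranked between 1 and 14 (ILMN_2687652) and between 3 and 12 (ILMN_2806549) of 45281 on each array, where quantile normalization leaves few distinct values, so a change in Prm1 could be understated. Probe ILMN_2687652 gave 15.28 and 15.22 in shSLX and 14.88 and 15.17 in shSLY, against 15.00, 15.38, 15.17 and 15.08 in wildtype 1 to 4. The fold intervals were 0.900 to 1.32 in shSLX and 0.802 to 1.28 in shSLY, and those of ILMN_2806549 were 0.846 to 1.23 and 0.741 to 1.18. On either probe each knockdown group overlapped the 4 wildtype arrays. On ILMN_2687652 both shSLX arrays lay above both shSLY arrays and above wildtype 3 and 4. The 2 Prm1 probes did not follow each other over the 8 arrays (Pearson's r = 0.068, as a description), and wildtype 2 was the highest wildtype array on the first and the lowest on the second.

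Tnp1, the other transition protein gene, gave 14.32 and 14.14 in shSLX and 13.94 and 13.74 in shSLY, against 13.76, 13.73, 14.27 and 14.24 in wildtype 1 to 4. Levels thus went with the slide as labelled: wildtype 3 and 4 matched the shSLX arrays of their slide and wildtype 1 the shSLY arrays of its own. The fitted log2 fold changes were -0.022 ± 0.11 in shSLX (fold interval 0.823 to 1.18) and 0.076 ± 0.14 in shSLY (0.845 to 1.31), neither past the threshold. Set against wildtype 1 and 2 in place of the arrays on its slide, shSLX gave 0.48 for Tnp1 (limma adjusted p = 0.0291). That alternative was chosen after seeing the data. The slide and these 2 wildtype pairs cannot be told apart.

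The spermatid linker histones were next. H1fnt encodes a histone H1 variant that sits at one pole of the spermatid nucleus and is needed for normal condensation. It gave 12.05 and 12.09 in shSLX and 11.95 and 12.10 in shSLY, against 12.12, 11.92, 11.62 and 11.88 in wildtype 1 to 4. The shSLX arrays lay above those of their own slide but below wildtype 1. The fitted value was 0.32 ± 0.12 in shSLX, 1.25-fold with an interval of 1.04 to 1.51 (limma adjusted p = 0.221), and -0.090 ± 0.15 in shSLY (0.951). Without wildtype 3, the lowest array, the shSLX value of H1fnt was 0.19, and without wildtype 4 it was 0.45.

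Hils1, a linker histone-like gene of elongating spermatids, had the narrowest wildtype spread of the list (SD 0.051, n = 4). Its signals were 14.38 and 14.16 in shSLX and 14.01 and 14.01 in shSLY, against 14.06, 14.03, 14.12 and 14.14 in wildtype 1 to 4. Both shSLX arrays lay above all wildtype arrays, shSLX 2 narrowly, and both shSLY arrays below them. The fitted values were 0.14 ± 0.11 in shSLX and -0.049 ± 0.13 in shSLY. Without shSLX 1 the first was 0.029, and without shSLX 2 it was 0.25. For Hils1 the difference between effects was 0.19 with an interval of -0.20 to 0.57 (limma adjusted p = 0.699). For Hils1, as for Tnp1 and Prm1, all fold intervals against wildtype lay within 0.741 to 1.32.

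Brdt encodes a testis bromodomain protein that binds acetylated histones, acts in meiotic gene expression and compacts chromatin in spermatids. Its 2 detected probes, annotated to different transcript records, went opposite ways over the arrays (Pearson's r = -0.81, n = 8 arrays, as a description). Probe ILMN_3127006 gave 12.28 and 12.20 in shSLX and 11.78 and 11.61 in shSLY, against 12.08, 11.92, 12.56 and 12.63 in wildtype 1 to 4. Each knockdown group lay below the wildtype arrays of its own slide. The fits were -0.36 ± 0.11 in shSLX (0.781-fold, interval 0.661 to 0.922, limma adjusted p = 0.146) and -0.38 ± 0.13 in shSLY (0.770-fold, interval 0.628 to 0.944, limma adjusted p = 0.350). By the non-normalized table's own headers both turned to positive values, 0.49 and 0.16.

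The other Brdt probe, ILMN_2705747, was the most variable of the list. It gave 9.19 and 7.96 in shSLX and 9.74 and 9.92 in shSLY, against 9.39, 9.57, 8.44 and 8.45 in wildtype 1 to 4. The 2 shSLX arrays lay on either side of wildtype 3 and 4, and both shSLY arrays above all wildtype arrays. The fold interval was 0.668 to 1.80 for shSLX and 0.741 to 2.50 for shSLY. In the shSLX fit, the value was -0.48 without shSLX 1 and 0.75 without shSLX 2, the second past the threshold (limma adjusted p = 0.00516). The sign of that Brdt value thus turned on which shSLX array was kept.

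Chd5 encodes a chromatin remodelling enzyme of spermatids that takes part in the exchange of histones for protamines. All 4 of its detected probes had a negative fitted value in shSLX: -0.28 ± 0.13 (ILMN_2491243), -0.28 ± 0.13 (ILMN_1223724), -0.29 ± 0.12 (ILMN_3145636) and -0.32 ± 0.12 (ILMN_2707217). None passed, with adjusted p from 0.226 to 0.308 in limma. For shSLY the same probes lay between -0.056 and 0.22, with adjusted p of 0.800 or more.

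By array, ILMN_2491243 gave 10.86 and 11.19 in shSLX and 12.25 and 12.14 in shSLY, against 11.97, 11.98, 11.29 and 11.33 in wildtype 1 to 4. Both shSLX arrays lay below every wildtype array and both shSLY arrays above every one. For ILMN_1223724 and ILMN_3145636, too, the shSLX arrays lay below all wildtype arrays, while the shSLY arrays fell within the wildtype range. In all, 3 of 13 probes of the list lay wholly below wildtype in shSLX, where 13.4% of all tested probes did, and these 3 probes share 1 gene.

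The size of the Chd5 difference depended on the arrays kept. Without shSLX 2, which leaves 1 shSLX array, the 4 probes were at -0.45 to -0.47. Without shSLX 1 they were at -0.11, -0.10, -0.14 and -0.17 for ILMN_2491243, ILMN_1223724, ILMN_3145636 and ILMN_2707217. Against wildtype 1 and 2, with no slide term, the first 3 of these passed, at -0.95, -0.81 and -0.68 (limma adjusted p = 0.00638, 0.00938 and 0.0196), while ILMN_2707217 turned to 0.16. In that setting 1052 of all 16572 tested probes passed as higher and 1036 as lower. The difference between both effects was -0.50 at ILMN_2491243, with an interval of -0.96 to -0.046 (limma adjusted p = 0.313). With no slide term that difference was -1.17 and passed (limma adjusted p = 0.0142), where 1187 of all 16572 tested probes passed as higher and 1258 as lower. By the non-normalized table's own headers, the shSLX values of ILMN_2491243 and ILMN_1223724 were -1.18 and -0.99. Both passed as lower (limma adjusted p = 0.0187 and 0.0322), where 1344 of all 16572 tested probes passed as higher and 1339 as lower.

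**Figure D3:**
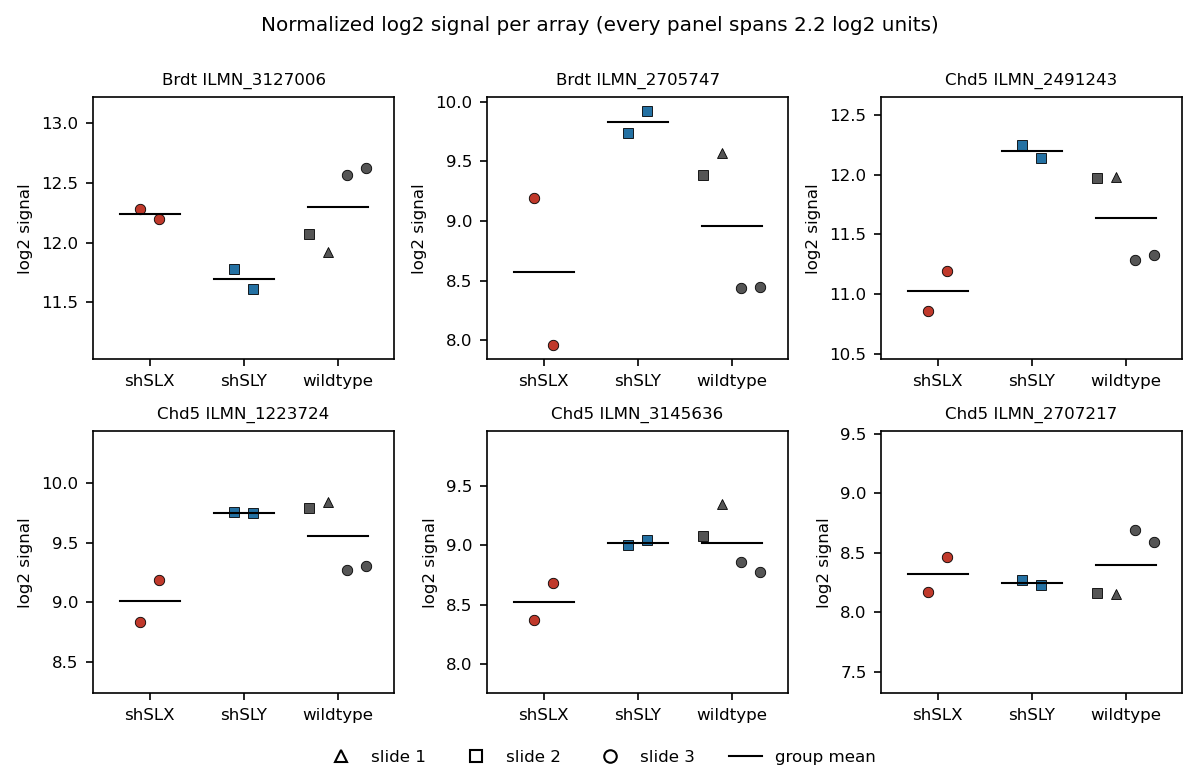
Normalized log2 signal of 2 Brdt and 4 Chd5 probes on each array, in shSLX, shSLY and wildtype (symbols give the slide, bars the group means). Wildtype 3 and 4, on slide 3, stand apart from wildtype 1 and 2 on every panel, by 0.39 to 1.04 on the log2 scale.

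Wildtype arrays themselves differed most at Brdt and Chd5. Wildtype 1 and 2 minus wildtype 3 and 4 came to 1.04 at Brdt ILMN_2705747, a size that 0.495% of all tested probes exceeded, and to 0.67 at Chd5 ILMN_2491243, which 2.24% exceeded. At Brdt ILMN_3127006 it was -0.60 and at Tnp1 -0.51, exceeded by 3.32% and 5.70%. At Prm3 it was -0.081, which 71.5% of probes exceeded in size. Of the 13 probes, wildtype 1 and 2 lay wholly above wildtype 3 and 4 for 5, where 34.1% of all tested probes did, and wholly below for 4, where 29.7% did. The median SD over the wildtype arrays was 0.25 for the 13 probes and 0.13 for all tested probes.

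Of the Chd5 probes, 3 moved together over the 8 arrays (Pearson's r = 0.85 to 0.97), while ILMN_2707217 did not follow them (-0.46 to -0.28). These correlations share the slides and the normalization. Among all other genes, by the brightest probe of each, Dmpk (r = 0.998), Myo5b (0.995) and 4921536K21Rik (0.992) had the patterns most like Chd5 ILMN_2491243 over the 8 arrays. Dmpk gave 6.79 and 7.01 in shSLX and 7.83 and 7.79 in shSLY, against 7.58, 7.63, 7.10 and 7.12 in wildtype 1 to 4. Dmpk encodes a protein kinase known from muscle and Myo5b a myosin motor.

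Other genes of the pathway were taken from lists, with 1 probe per gene, the brightest. By that probe, 2.80% of 9451 genes passed in shSLX and 0.656% in shSLY, and the medians over all genes were -0.0085 and -0.012. Among genes that control transcription of protamines and transition proteins, 9 of 10 were tested, 0 passed in either comparison, and the medians were -0.11 in shSLX and -0.023 in shSLY. Crem itself, by its brightest probe, was at 0.12 and -0.11. Kdm3a, a histone demethylase needed for Tnp1 and Prm1 expression in mice, had the largest value in shSLX (-0.40 ± 0.12, limma adjusted p = 0.161), and its other probes were at -0.43 and 0.13. For shSLY the largest was Taf7l, a germ cell partner of the basal transcription machinery, at 0.45 ± 0.15 (limma adjusted p = 0.326).

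For translation control and storage of protamine mRNA, 10 of 11 genes were tested and 0 passed, with medians of -0.077 in shSLX and 0.0074 in shSLY. By the brightest probe, the largest values were those of Tarbp2, an RNA-binding protein needed for protamine mRNA translation (-0.24 in shSLX), and Celf1 (-0.22 in shSLY). The other Tarbp2 probe was at 0.051 in shSLX. A dimmer Ybx3 probe, ILMN_1234336, was at -0.55 in shSLX (limma adjusted p = 0.0789), while the other Ybx3 probes were at -0.082 and -0.076. Histone removal and protamine loading had 17 of 19 genes tested and 0 past the threshold, with medians of -0.058 and 0.036. Cdyl, a chromodomain protein, was at 0.33 ± 0.10 in shSLX (limma adjusted p = 0.160) and -0.23 ± 0.12 in shSLY (0.684). Its other probe gave smaller values of the same signs, 0.085 in shSLX (limma adjusted p = 0.718) and -0.10 in shSLY (0.932).

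Spermatid histone variants gave the 1 call among these lists. Of 12 genes 6 were tested, with medians of 0.24 in shSLX and 0.12 in shSLY, and H2al2a, a histone H2A variant that appears with the transition proteins, rose in shSLX. Its signals were 11.03 and 10.94 in shSLX and 10.56 and 10.62 in shSLY, against 10.77, 10.68, 10.34 and 10.40 in wildtype 1 to 4. The fold change was 0.61 ± 0.099 (limma adjusted p = 0.0144), and the effects differed by 0.79 ± 0.16 (0.0443). H2al1n, of the same variant class, was at 0.70 ± 0.15 in shSLY and did not pass (limma adjusted p = 0.0893). Of the 9 other linker histones only 2 were tested, and the larger value was that of H1f10 in shSLY (0.56 ± 0.18, limma adjusted p = 0.304).

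**Figure D4:**
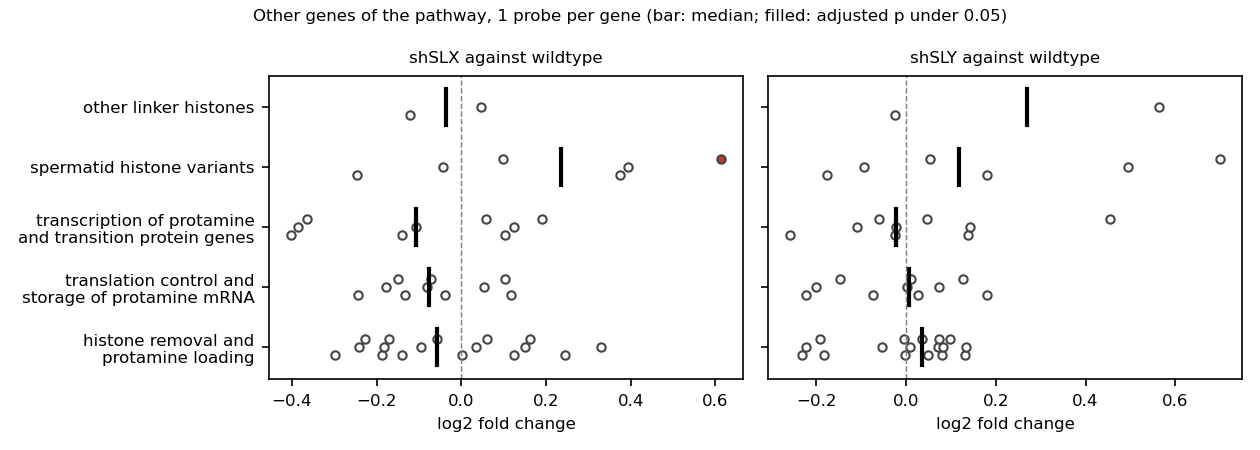
Log2 fold changes of the other pathway genes in shSLX and shSLY against wildtype, 1 probe per gene (points), with list medians (bars). H2al2a, at 0.61 in shSLX, is the filled point, the 1 gene with an adjusted p under 0.05.

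Markers of other stages and cell types were set beside these values, and in such preparations a change in the share of a cell type and a change in RNA per cell cannot be told apart. Summed intensity over 7 of 8 elongating spermatid markers was 90678 to 106134 in shSLX and 99063 to 102550 in shSLY, against 89558 to 99708 in wildtype. That over all 8 round spermatid markers was 53615 to 53678 in shSLX and 53653 to 54513 in shSLY, against 52481 to 56607 in wildtype. For 5 of 8 spermatocyte markers it was 4702 to 7491 in shSLX and 3795 to 3850 in shSLY, against 4494 to 5970 in wildtype. Both shSLY arrays thus lay below wildtype for the spermatocyte sum. Spo11, 1 of these 5, stood at log2 11.77 in shSLX 1 and 10.31 in shSLX 2 by its brightest probe. Its other probe went the other way, at 8.47 and 9.16. Of 7 spermatogonial markers 3 were measured, with summed intensity of 591 to 634 in shSLX and 593 to 651 in shSLY, against 432 to 619 in wildtype. Sohlh1, a transcription factor of spermatogonia, was the 1 that rose in shSLX (0.73 ± 0.11, limma adjusted p = 0.0121, by its brightest probe). The 3 measured Sertoli markers summed to 296 to 363 in shSLX and 506 to 577 in shSLY, against 356 to 585 in wildtype. Insl3, the 1 measured Leydig marker, had intensities of 133 to 201 in shSLX and 264 to 308 in shSLY, against 160 to 201 in wildtype. Both shSLY arrays lay above all wildtype arrays for Insl3, with a log2 fold change of 0.57 ± 0.24 that did not pass (limma adjusted p = 0.514). All 3 measured stromal genes of 6 (Dcn, Acta2 and Myh11) rose in shSLX by their brightest probes. Their summed intensity was 910 to 921 in shSLX and 614 to 753 in shSLY, against 368 to 634 in wildtype. The other Dcn probe passed too (0.73, limma adjusted p = 0.0238), while the other Acta2 probes did not (0.19 and 0.094, limma adjusted p = 0.378 and 0.719). Immune markers, 5 of 8 measured, summed to 604 to 715 in shSLX and 725 to 767 in shSLY, against 474 to 807 in wildtype. Of these, 2, Lyz2 and C1qc, rose in shSLX by their brightest probes, as fitted against wildtype 3 and 4. For C1qc, wildtype 1 (log2 6.88) lay above both shSLX arrays (6.72 and 6.52). For Lyz2, wildtype 1 (7.81) lay above shSLX 2 (7.38), and its other probe did not pass (0.19, limma adjusted p = 0.467). The part of these cell types in the values of the chromatin genes was not tested.

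**Figure D5:**
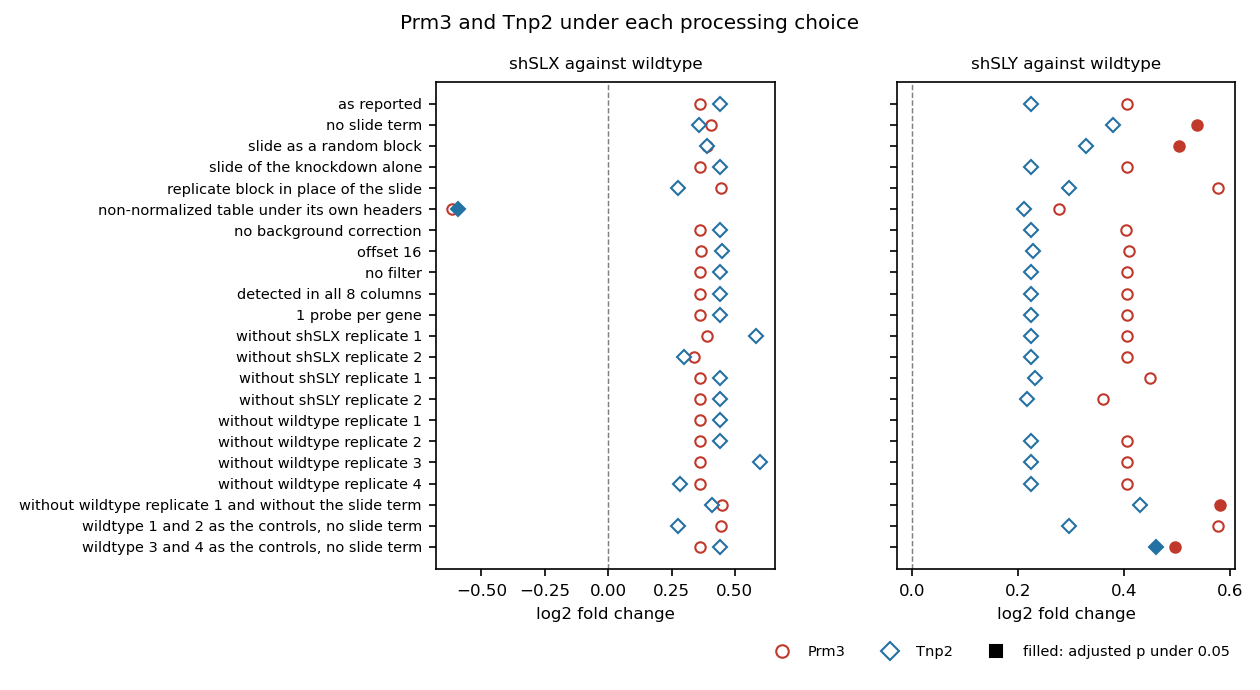
Log2 fold change of Prm3 (circles) and Tnp2 (diamonds) in shSLX and in shSLY against wildtype under each processing choice, filled where the adjusted p is under 0.05. In shSLX both genes lie above 0 under every choice shown except the non-normalized table under its own headers, where they lie at -0.62 and -0.59, and in shSLY both lie above 0 under every choice shown.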

How the data were processed

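Total RNA of round spermatids was labelled with biotin and hybridised to Illumina bead arrays. Per the file headers, 1 deposited table holds non-normalized intensity and detection p-values per array. The other, deposited as the series matrix, holds intensity values the authors had normalized: minimum 46.4 and maximum 42689 on every array, as quantile normalization leaves. The submitters' processing notes name BeadStudio and GenomeStudio, with no step or order attached to either.

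Normalized intensities were background-corrected (limma 3.58.1, R 4.3.3, normexp, offset 50), then quantile-normalized, and log2 was taken. Probes with detection p under 0.01 in at least 2 of 8 columns were tested. Group and slide were fitted with lmFit and eBayes (3 residual and 5.69 prior degrees of freedom), and the procedure was tested on simulated data. The number of arrays limits the precision. All probes of the listed genes are named; of pathway lists, genes past the threshold or else the largest value. Members and lists were chosen with earlier results of these data known. Gene names came from the platform annotation, with 34807 probes updated to GRCm38.p6. Alternatives changed the slide term, source table, background, filter, probe rule and arrays.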

Additional observations from a re-analysis of the deposited data

Results flagged for a closer look

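The 2 columns of the non-normalized table headed shSLX 1 and 2 match no column of the normalized table. Their intensities enter only the values given above by that table's own headers. Their detection p-values also enter the filter that chose the tested probes, and with it the adjusted p-values and the shares over all tested probes. After neqc normalization both lay above the 4 columns headed wildtype for 3 of the 13 tested probes, where 22.9% of all tested probes did. They lay below for 4, Tnp2 and Chd5 ILMN_2491243, ILMN_1223724 and ILMN_3145636, where 24.3% of all did. Tnp1 averaged 14.20 there (14.29 and 14.10) against 13.75, 13.72, 13.93 and 13.73 in the columns headed wildtype 1 to 4. Brdt ILMN_3127006 averaged 12.16 (12.25 and 12.07) against 12.04, 11.89, 11.75 and 11.58. Brdt ILMN_2705747 averaged 10.14 (10.12 and 10.16) against 9.26, 9.46, 9.64 and 9.83. Since the ranks of shSLY 1 and 2 stand under the headers wildtype 3 and 4, these differences are between columns as headed. No single wildtype array was called an outlier on any of the 13 tested probes, by Dixon's test at 4 arrays. That test looks for 1 array apart from the rest. It is not made to find wildtype 1 and 2 apart from wildtype 3 and 4, as at Tnp1, Brdt and Chd5.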

How the results depend on the processing

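For shSLX, 400 probes passed; the count was 250 with the slide of the knockdown alone, 266 with detection in all 8 columns, 2683 in the non-normalized table under its own headers and 2088 against wildtype 1 and 2. For shSLY, 118 passed, against 635 with no slide term, 469 with a random slide block, 558 with its slide alone, 50 under the headers, 17 at offset 16, 45 with 1 probe per gene, 667 without wildtype 1 and the slide term, 333 against wildtype 1 and 2, and 3615 against wildtype 3 and 4. For the difference between effects, 298 passed, against 2445 with no slide term, 1043 with a random block, 21 under the headers, 171 at offset 16, 175 with 1 probe per gene, 2445 without wildtype 1 and the slide term, 4484 against wildtype 1 and 2, and 4298 against wildtype 3 and 4. The alternatives with chosen wildtype arrays were added after seeing the data. Leaving out 1 array gave 43 to 2495 for shSLX, 5 to 516 for shSLY and 13 to 1695 for the difference. Of the 13 probes of the listed genes, 0 passed in each comparison. For shSLX it was 3 under the headers and 4 against wildtype 1 and 2, and 0 to 5 on leaving out 1 array, the 5 without shSLX 2. For shSLY it was 1 (Prm3) with no slide term, 1 with a random block and 1 without wildtype 1 and the slide term, 8 against wildtype 3 and 4, and 0 to 0 on leaving out 1 array. For the difference it was 2 with no slide term, 2 without wildtype 1 and the slide term, 6 against wildtype 1 and 2, 6 against wildtype 3 and 4, and 0 to 2 on leaving out 1 array. With the replicate number as a block in place of the slide, 2103, 334 and 4383 probes passed for shSLX, shSLY and the difference, with 4, 0 and 6 probes of the listed genes. Deviations of same-numbered samples from their group means correlated at -0.084 to 0.22, not all above 0.1, so the numbers were not taken to pair them.

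Signs turned as follows, and the cause was not tested. In the non-normalized table, by its own headers, shSLX values were -0.62 for Prm3, 0.37 for Tnp1, -0.59 for Tnp2, -0.050 for H1fnt, -0.0033 for Hils1 and 0.49 for Brdt ILMN_3127006; shSLY values were 0.21 for Hils1, 0.16 for Brdt ILMN_3127006, -0.92 for Brdt ILMN_2705747 and -0.97 for Chd5 ILMN_2491243; differences were -0.11 for Prm1 ILMN_2687652, -0.80 for Tnp2, -0.0017 for H1fnt, -0.21 for Hils1 and 1.32 for Brdt ILMN_2705747. With no slide term, shSLX was 0.23 for Tnp1 and -0.38 for Brdt ILMN_2705747. For shSLY it was -0.14 for Prm1 ILMN_2687652, -0.16 for Tnp1, 0.14 for H1fnt, and 0.20, 0.0069 and -0.15 for Chd5 ILMN_1223724, ILMN_3145636 and ILMN_2707217. Differences were 0.39 for Tnp1, -0.019 for Tnp2 and 0.069 for Chd5 ILMN_2707217, and the replicate block gave the same 3 values. The Chd5 ILMN_2491243 difference was -1.17 under both (limma adjusted p = 0.0142 and 0.00137). The Tnp2 difference was also -0.019 under the 3 added choices of wildtype arrays. For other genes, only turned values that passed are given for these choices. Against wildtype 3 and 4, shSLY was -0.42 for Tnp1 (limma adjusted p = 0.0338). It was 0.47 for Chd5 ILMN_1223724 (0.0338) and -0.39 for Chd5 ILMN_2707217 (0.0492). Against wildtype 1 and 2, shSLX was 0.48 for Tnp1 (0.0291). The Tnp1 difference was 0.39 against either pair (0.0351 for wildtype 3 and 4, 0.0338 for wildtype 1 and 2). With a random slide block, shSLX was 0.14 for Tnp1 and -0.19 for Brdt ILMN_2705747. For shSLY it was -0.094 for Prm1 ILMN_2687652, -0.072 for Tnp1, 0.066 for H1fnt, 0.11 for Chd5 ILMN_1223724 and -0.059 for Chd5 ILMN_2707217, and the Tnp1 difference was 0.21. With the replicate block, shSLX was 0.48 for Tnp1, 0.24 for Brdt ILMN_3127006, -0.90 for Brdt ILMN_2705747 and 0.16 for Chd5 ILMN_2707217, and shSLY was -0.17 and 0.030 for the Prm1 probes and 0.010 for H1fnt. On leaving out 1 array, shSLX ranged from -0.017 to 0.080 for Prm1 ILMN_2806549, -0.11 to 0.068 for Tnp1 and -0.48 to 0.75 for Brdt ILMN_2705747. The shSLY values ranged from -0.13 to 0.17 for Prm1 ILMN_2687652, -0.24 to 0.045 for Prm1 ILMN_2806549 and -0.022 to 0.17 for Tnp1. Differences ranged from -0.042 to 0.25 and -0.014 to 0.28 for the Prm1 probes, -0.084 to 0.0034 for Prm3, -0.20 to 0.00063 for Tnp1, -0.063 to 0.10 for Brdt ILMN_3127006 and -0.93 to 0.31 for Brdt ILMN_2705747. The shSLY comparison without wildtype 1 could not be fitted with the slide term. Of the other values, 580 kept their direction and side of the threshold and 25 passed where they had not. These counts take in the 3 added choices of wildtype arrays for Prm3 and Tnp2 alone. Values of other genes that passed only under those choices are not among the 25.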
